A study of Homo sapiens with 6 samples.

Results

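BAD and 9 further genes of the BCL2 family of apoptosis regulators were followed in the transcriptome of HCT116, a human colon cancer cell line. BAD mRNA was higher in every IGF2BP3 knockdown library than in any control library, with a mean level 3.40 times that of the controls. The effectors BAX and BAK1 and the BH3-only gene BID were also higher in all 3 knockdown libraries, by smaller amounts. GC-rich genes were generally higher in the knockdown libraries, and with that trend removed the log2 fold change was 1.05 in place of 1.77 for BAD and 0.28 in place of 0.69 for BAX, and the groups overlapped for BID. The libraries of the 2 groups overlapped for the guardians BCL2L1 and MCL1, for BBC3, PMAIP1 and BIK, and for BCL2L11, the one gene of the 10 whose uncorrected fitted change was below 0. With the trend removed by the longest transcript of each gene, BCL2L11 was at 0.02 and BCL2L1, at −0.23, was the only gene below 0. In a second form of the correction, given below, both were below 0 and the groups did not overlap for BID. The 10 genes, BAD, BAX, BAK1, BID, BCL2L1, BCL2L11, MCL1, BBC3, PMAIP1 and BIK, were selected by name from the 62710 genes of the count table, and all 10 passed the filter on low counts that left 16753 genes.

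The names were chosen from results of this same comparison, in which BAD stood out, so the differences of the 10 genes between the groups are given here as a description, with fitted changes and standard errors and without p-values. The groups were 3 sh-NC libraries, from HCT116 cells infected with a lentivirus carrying a scrambled control sequence, and 3 sh-IGF2BP3 libraries, from cells infected with one carrying an shRNA against IGF2BP3. IGF2BP3 is an RNA-binding protein that recognises N6-methyladenosine marks and stabilises mRNAs. Both were stable lines, so both groups share the infection and the selection of infected cells, and no drug or time course is given in the labels. The knockdown rests on 1 shRNA sequence in 1 cell line, and the labels do not say that the 3 libraries of a group came from separate cultures, so the tests measure the spread between these libraries.

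The BCL2 family sets whether the outer mitochondrial membrane stays intact. The guardians, such as BCL2L1 (BCL-XL) and MCL1, hold the pore-forming effectors BAX and BAK1 in check. The BH3-only proteins sense damage, growth factor loss or death receptor signals. They bind the guardians, and some activate the effectors directly. When the effectors open the membrane, cytochrome c leaves the mitochondria and caspases are activated. In the intestinal epithelium BCL2L1 and MCL1 are the guardians best known for keeping cells alive.

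The shRNAs are shown because their seeds can pair with mRNAs other than the target. Each is written as the sense strand, 5′ to 3′, with the 7 bases that pair with guide positions 2 to 8 in capitals.
sh-IGF2BP3: ggctcagggaaGAATTTAt
sh-NC: ttctccgaacgTGTCACGt
The principal transcript of each of the 10 genes (the transcript ranked first by annotation) held neither sequence whole. Their other transcripts were not searched. The sh-IGF2BP3 seed site was found in the principal transcript of 2 of the 10 genes, BCL2L1 and MCL1, with 1 site each. Of the 16236 tested genes that had a transcript sequence, 21% held it in their principal transcript. None of the 10 genes held the sh-NC seed site there, which 6.21% of tested genes held. BAD, BAX, BAK1 and BID, the genes that were higher in every knockdown library, held neither site in that transcript.

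Libraries held 16146718 to 23576469 counts. The mitochondrial genes supplied 5.24% to 7.76% of these counts, a share that was lower in every sh-IGF2BP3 library than in every sh-NC library. IGF2BP3 itself stood at 90.3, 84.1 and 70.3 CPM (counts scaled to a common library size with TMM factors) in sh-NC and at 60.2, 52.3 and 55.8 in sh-IGF2BP3. Its log2 fold change was −0.54 ± 0.18 (SE, n = 3 and 3; edgeR quasi-likelihood test, adjusted p = 0.126), and an exact permutation test gave p = 0.1, the smallest that 3 against 3 allows. Corrected for GC content and length, its log2 fold change was −0.26 (edgeR adjusted p = 0.624). The knocked-down gene was therefore lower in all 3 libraries, without passing the adjusted threshold. The epithelial genes EPCAM, KRT8, KRT18, KRT19 and CDH1 summed, with VIL1, to between 2205 and 3935 CPM over the raw library totals (without TMM factors, as for the other marker sums), while VIL1 had at most 3 counts. The 6 leukocyte markers summed to between 0.57 and 1.40 CPM, and the 6 stromal markers to between 28.999 and 62.5 CPM, nearly all from COL1A1.

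A gene was called where its fold change exceeded 1.5 and its Benjamini-Hochberg adjusted p was under 0.05. The edgeR quasi-likelihood test called 0% of the 16753 genes higher and 0% lower, and so 0 of the 10 family genes. At an unadjusted p under 0.05 it gave 13.6% of all genes higher and 8.54% lower, and 6 of the 10 family genes higher (BAD, BAX, BAK1, BID, BBC3 and BIK) and 0 lower. Corrected for GC content and length, it gave 4 family genes higher (BAD, BAK1, BID and PMAIP1) and 0 lower. Over all genes it then gave 1136 higher and 612 lower. The excess of higher genes without that correction, 2283 against 1431, was absent with upper-quartile normalization, which gave 1889 higher and 1904 lower. DESeq2 called 4.29% of the 13087 genes it tested higher and 1.05% lower, among them BAD, BAX and BAK1 in the higher direction. The CPM values of the 2 groups did not overlap for 13.2% of genes in the higher direction and 11% in the lower, and for 4 of the 10 family genes, all higher (BAD, BAX, BAK1 and BID). Since these genes were named with this contrast known, their share of calls is given without reading anything from it. The median log2 fold change was 0.57 over the 10 genes and −0.01 over all genes tested.

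BAD (ENSG00000002330, chr11:64269830-64284704, minus strand, GRCh38) encodes a BH3-only sensitizer that binds BCL-XL and is kept inactive by phosphorylation under growth factor signalling. It had 104, 92 and 68 counts in sh-NC 1, 2 and 3 and 324, 276 and 142 counts in sh-IGF2BP3 1, 2 and 3. In CPM these were 5.87, 3.80 and 3.47 in sh-NC and 18.5, 18.1 and 8.06 in sh-IGF2BP3. The lowest knockdown library, sh-IGF2BP3 3, thus lay above the highest control, sh-NC 1, and the 2 other knockdown libraries stood well above both. The means were 4.38 ± 1.30 CPM in sh-NC and 14.9 ± 5.91 in sh-IGF2BP3 (SD, n = 3 each), with a log2 fold change of 1.77 ± 0.34 (SE). Of all genes tested, 34 (0.203%) had a larger log2 fold change. Leaving out each library in turn gave log2 fold changes from 1.58 to 2.05. In bulk RNA, more cells that express a gene and more of its RNA per cell cannot be told apart.

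BAD overlaps GPR137 on the opposite strand, and 23.6% of its exonic bases are shared with exons of that gene. GPR137 (chr11:64270062-64289500, plus strand) had 194, 244 and 163 counts in sh-NC and 304, 205 and 224 in sh-IGF2BP3. These raw counts overlapped between the groups, with the 244 from the deepest library. Scaled to library size as for CPM, GPR137 was higher in every knockdown library, as BAD was. Whether reads were assigned by strand is not given in the sources used here, so reads of the 2 genes in the shared bases cannot be told apart.

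The promoters of BAD, of BAX, which was higher with it, and of BCL2L11, whose groups overlapped, are shown as 300 bases from 250 before to 50 after the RefSeq transcription start (GRCh38.p14). The GC box letters GGGCGG, and CCGCCC on the other strand, are in capitals.
BAD, chr11:64284655-64284954, minus strand: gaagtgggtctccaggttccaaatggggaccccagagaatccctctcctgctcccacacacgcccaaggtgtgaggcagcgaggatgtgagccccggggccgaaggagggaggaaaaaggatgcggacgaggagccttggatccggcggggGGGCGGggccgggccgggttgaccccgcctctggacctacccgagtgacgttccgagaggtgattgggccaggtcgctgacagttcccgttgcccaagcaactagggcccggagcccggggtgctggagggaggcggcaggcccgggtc
BAX, chr19:48954625-48954924, plus strand: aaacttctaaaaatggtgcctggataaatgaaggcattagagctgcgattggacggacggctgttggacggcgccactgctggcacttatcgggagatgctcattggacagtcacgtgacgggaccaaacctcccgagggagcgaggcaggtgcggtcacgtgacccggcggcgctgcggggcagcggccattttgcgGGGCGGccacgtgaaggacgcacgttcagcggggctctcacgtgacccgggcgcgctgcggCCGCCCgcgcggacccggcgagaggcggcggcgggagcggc
BCL2L11, chr2:111120664-111120963, plus strand: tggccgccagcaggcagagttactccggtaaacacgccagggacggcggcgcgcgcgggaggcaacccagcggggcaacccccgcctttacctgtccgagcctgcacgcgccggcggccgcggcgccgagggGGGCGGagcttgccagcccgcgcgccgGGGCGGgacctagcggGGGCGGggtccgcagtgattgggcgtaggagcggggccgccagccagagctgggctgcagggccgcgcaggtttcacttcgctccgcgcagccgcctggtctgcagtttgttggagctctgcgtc
The BAD promoter held 1 GC box, the BAX promoter 2 and the BCL2L11 promoter 3, while 44.95% of the 35116 RefSeq promoters of this length held at least 1. The letters CCAAT, or ATTGG on the other strand, stood once in the BAD and BCL2L11 promoters and 2 times in that of BAX, and in 34.61% of all promoters. The letters TATAAA, or TTTATA, were in none of the 3 and in 11.53% of all promoters. Their GC contents were 68.3%, 67.3% and 74.7% in the same order. Another RefSeq start of BAD lies just downstream, at chr11:64284616-64284915 for its window, which also holds 1 GC box. Promoter entries were matched for 8 of the 10 genes, all but MCL1 and BIK. The promoter of PMAIP1 had 4 GC boxes and that of BAK1 had 2, while that of BBC3 had 0 at a GC content of 48%. The 5 promoters of BID had 4, 2, 0, 4 and 3 GC boxes and the 2 of BCL2L1 had 0 and 1.

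The effectors were both higher. BAX (ENSG00000087088, chr19:48954815-48961798, plus strand), which forms pores in the outer mitochondrial membrane, had 33.1, 29.04 and 25.4 CPM in sh-NC and 52.5, 49.7 and 38.8 in sh-IGF2BP3. The groups did not overlap, and sh-IGF2BP3 3 was again the lowest of the knockdown libraries. Its means were 29.2 ± 3.84 and 47.0 ± 7.23 CPM (SD, n = 3 each) and its log2 fold change 0.69 ± 0.20 (SE). BAK1 (ENSG00000030110, chr6:33572547-33580293, minus strand), the effector that resides on the outer membrane, had 24.7, 21.2 and 16.8 CPM in sh-NC and 35.6, 44.3 and 33.7 in sh-IGF2BP3. Its groups did not overlap either, with means of 20.9 ± 3.96 and 37.9 ± 5.62 CPM and a log2 fold change of 0.86 ± 0.21. BAK1 has the processed pseudogene copies BAK1P1, with 1 to 10 counts per library, and BAK1P2, with 0 counts in every library, against 328 to 677 counts of BAK1.

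Among the guardians, neither gene separated the groups. BCL2L1 (ENSG00000171552, chr20:31664452-31723989, minus strand) had 151, 167 and 156 CPM in sh-NC and 183, 153 and 161 in sh-IGF2BP3. The highest value, in sh-IGF2BP3 1, and the second highest, in sh-NC 2, were in different groups. The means were 158 ± 8.18 and 166 ± 15.3 CPM, with a log2 fold change of 0.07 ± 0.18 that was −0.01 without sh-IGF2BP3 1. BCL2L1 shares 43.0% of its exonic bases with ABALON on the opposite strand, a gene with 1 to 10 counts per library. MCL1 (ENSG00000143384, chr1:150560895-150579738, minus strand), a guardian with a short-lived protein, had 366, 197 and 180 CPM in sh-NC and 190, 316 and 287 in sh-IGF2BP3. Its highest library was sh-NC 1, while the other two sh-NC libraries lay near sh-IGF2BP3 1. The means were 248 ± 103 and 265 ± 65.8 CPM, and the log2 fold change of 0.09 ± 0.26 was 0.49 without sh-NC 1 and −0.11 without sh-NC 3.

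Of the other BH3-only genes, BID separated the groups, while BBC3 and BIK did not. BID (ENSG00000015475, chr22:17734138-17774770, minus strand), which is cleaved by caspase-8 and links death receptors to mitochondria, had 43.4, 33.8 and 30.4 CPM in sh-NC and 45.4, 56.8 and 49.4 in sh-IGF2BP3. The groups did not overlap, although sh-NC 1 and sh-IGF2BP3 1 lay close together, and the log2 fold change was 0.49 ± 0.20. BBC3 (PUMA, ENSG00000105327, chr19:47220822-47232766, minus strand), which binds all guardians, had 22.6, 10.5 and 10.01 CPM in sh-NC and 28.4, 35.6 and 17.7 in sh-IGF2BP3. The groups overlapped because sh-NC 1 lay above sh-IGF2BP3 3. Its log2 fold change of 0.92 ± 0.32, the second largest of the 10, was 1.41 without sh-NC 1. BIK (ENSG00000100290, chr22:43110750-43129712, plus strand), a BH3-only protein of the endoplasmic reticulum, had 9.31, 6.57 and 5.57 CPM in sh-NC and 10.7, 14.4 and 8.58 in sh-IGF2BP3. There too sh-NC 1 exceeded sh-IGF2BP3 3, and the log2 fold change was 0.65 ± 0.29.

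PMAIP1 and BCL2L11 showed the smallest differences of the BH3-only genes. PMAIP1 (NOXA, ENSG00000141682, chr18:59899996-59904305, plus strand), which binds MCL1 selectively, had 114, 92.6 and 88.6 CPM in sh-NC and 87.6, 137 and 112 in sh-IGF2BP3. The lowest of its 6 values was a knockdown library, sh-IGF2BP3 1, and the log2 fold change of 0.19 ± 0.20 was 0.03 without sh-IGF2BP3 2 and 0.34 without sh-IGF2BP3 1. BCL2L11 (BIM, ENSG00000153094, chr2:111119378-111168445, plus strand), a potent activator of the effectors, had 35.4, 24.99 and 32.04 CPM in sh-NC and 25.7, 24.7 and 31.7 in sh-IGF2BP3. The groups overlapped, and the log2 fold change of −0.17 ± 0.21 was −0.05 without sh-NC 1 and −0.31 without sh-IGF2BP3 3. Of its exonic bases 10.9% are shared with MIR4435-2HG on the opposite strand, which had 609 to 1271 counts per library.

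**Figure D1:**
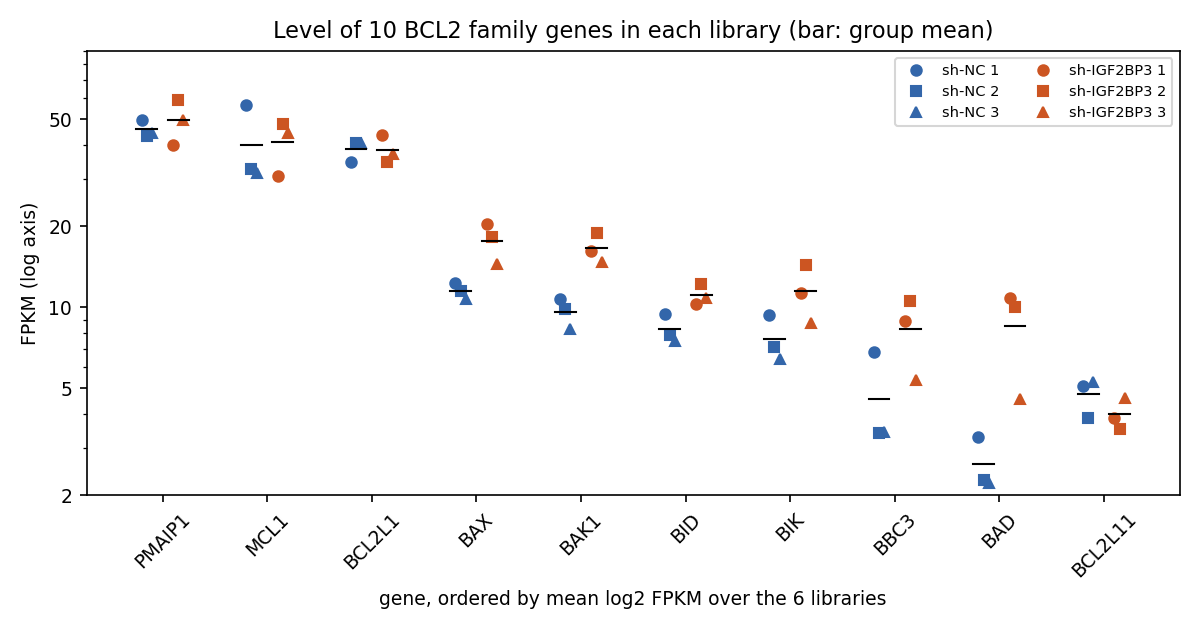
Level of each of the 10 genes in each library in FPKM (fragments scaled to gene length and library total, log axis), with sh-NC in blue, sh-IGF2BP3 in orange, replicates 1 to 3 as circle, square and triangle, and bars at the group means. BAD has a mean of 2.60 FPKM in sh-NC, the lowest of the 10 genes there, and of 8.48 in sh-IGF2BP3, while the sh-NC and sh-IGF2BP3 points of BCL2L1 and MCL1 interleave.

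Levels of different genes were compared per length, on the deposited FPKM values. Over all 6 libraries the order by mean log2 FPKM was PMAIP1, MCL1, BCL2L1, BAX, BAK1, BID, BIK, BBC3, BAD and BCL2L11, with means from 47.8 FPKM for PMAIP1 to 4.37 for BCL2L11. Two-sided exact permutation tests that flipped the sign of the difference within each library gave an adjusted p under 0.05 for 0 of the 9 neighbouring pairs, and 6 libraries cannot give a p below 0.0312. BCL2L1 lay above BAX in 6 of 6 libraries, by 1.44 on the log2 scale, which is the step between the 3 abundant genes and the rest (exact permutation p = 0.0312, adjusted p = 0.0938). BAK1 lay above BID and BIK above BBC3 in 6 of 6 libraries, with the same p-values and differences of 0.40 and 0.65. PMAIP1 lay above MCL1 in 5 of 6 libraries by 0.26 ± 0.24 (SD of the difference; exact permutation p = 0.0938, adjusted p = 0.188). For the remaining 5 pairs the mean difference was smaller than its SD between libraries, as for MCL1 over BCL2L1 (0.04 ± 0.51), BID over BIK (0.05 ± 0.21) and BAD over BCL2L11 (0.06 ± 1.18). With CPM per kilobase of the longest transcript in place of FPKM, MCL1 and BCL2L1 stood ahead of PMAIP1, BID ahead of BAK1 and BBC3 ahead of BIK, while BAD and BCL2L11 stayed at the end. The order differed between the groups at its lower end. BAD was 10th of 10 by mean FPKM in sh-NC and 8th in sh-IGF2BP3, while BCL2L11 was 8th in sh-NC and 10th in sh-IGF2BP3, and BAD lay above BCL2L11 in 2 of 6 libraries.

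The balance between the classes, on the same FPKM scale, was described per library. The effectors BAX and BAK1 summed to 22.9, 21.3 and 19.01 FPKM in sh-NC and to 36.5, 37.2 and 29.3 in sh-IGF2BP3, higher in every knockdown library. The guardians BCL2L1 and MCL1 summed to 91.0, 73.5 and 72.3 FPKM in sh-NC and to 74.3, 82.7 and 81.8 in sh-IGF2BP3, and these groups overlapped. The 6 BH3-only genes summed to 83.9, 68.0 and 69.1 FPKM in sh-NC and to 85.4, 109.7 and 83.7 in sh-IGF2BP3, where sh-NC 1 lay just above sh-IGF2BP3 3. Divided by the guardians, the BH3-only sum was 0.92, 0.93 and 0.96 in sh-NC and 1.15, 1.33 and 1.02 in sh-IGF2BP3, so the ratio was higher in every knockdown library. BAD supplied 3.93%, 3.36% and 3.22% of the BH3-only sum in sh-NC and 12.7%, 9.12% and 5.46% in sh-IGF2BP3, and PMAIP1 was the most abundant BH3-only gene in all 6 libraries. The ratio of BAX to BCL2L1 was 0.35, 0.28 and 0.26 in sh-NC and 0.47, 0.53 and 0.39 in sh-IGF2BP3, without overlap. The ratio of PMAIP1 to MCL1 was 0.89, 1.34 and 1.40 in sh-NC and 1.31, 1.23 and 1.11 in sh-IGF2BP3, with overlap.

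GC content moved with these differences. Among all 16236 tested genes that had a transcript sequence, GC-richer genes had the larger log2 fold changes (Spearman correlation 0.611 with the GC content of the longest transcript, across genes, which do not replicate each other). Over the 10 family genes the correlation was 0.782 by Spearman and 0.752 by Pearson, given as a description. BAD, with a GC content of 66.3%, and BBC3, with 69.7%, are the most GC-rich of the 10 genes and had the largest log2 fold changes. PMAIP1, with 37.2%, MCL1, with 45.1%, and BCL2L11, with 45.7%, are the least GC-rich, and each had a log2 fold change under 0.2. In the eighth of all tested genes with the most GC, at a median of 63.3%, the median log2 fold change was 0.56 and its 90th percentile 1.01, both below the 1.77 of BAD.

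**Figure D2:**
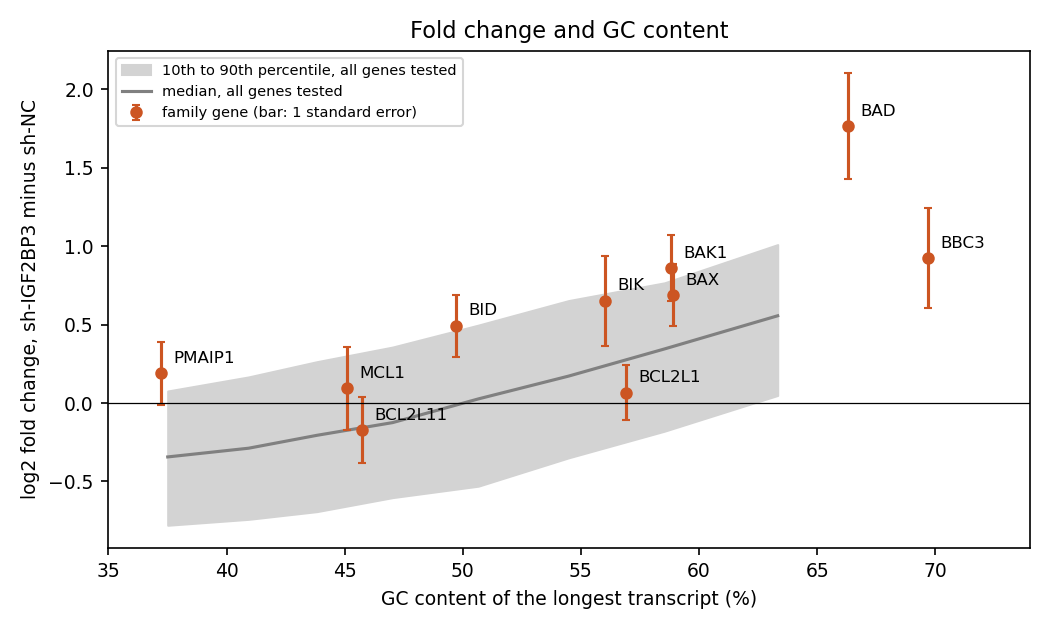
Log2 fold change (sh-IGF2BP3 minus sh-NC, vertical axis) against GC content of the longest transcript in percent (horizontal axis), with the 10 family genes as points with bars of 1 standard error, and the median (line) and 10th to 90th percentile (band) of all tested genes in 8 bins of GC content. The band ends at the median GC content of the last bin, 63.3%, with its upper edge at 1.01, and BAD, at 66.3% GC and 1.77, lies beyond that end and higher than it, while BCL2L1 at 56.9% lies inside it, below the median line.

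After each library was corrected for its trends in GC content and length (hereafter GC-corrected), the log2 fold change of BAD was 1.05 ± 0.24 (SE). The GC-corrected log2 CPM of BAD was 2.73, 2.41 and 2.23 in the sh-NC libraries and 3.56, 3.74 and 3.14 in the sh-IGF2BP3 libraries, still without overlap, and 0.788% of tested genes had a larger log2 fold change. BAX stood at 0.28 ± 0.14 and BAK1 at 0.48 ± 0.18, both without overlap between the groups, and BID at 0.45 ± 0.18, with overlap. The BAK1 groups nearly met, at a GC-corrected log2 CPM of 4.73 in sh-NC 1 and 4.77 in sh-IGF2BP3 1. The share of all genes without overlap after GC correction is not given here, so nothing is read from these separations. The log2 fold change of BBC3 dropped to 0.16 ± 0.26 and that of BIK to 0.36 ± 0.24, while PMAIP1 moved up to 0.39 ± 0.17. BCL2L1 turned from 0.07 to −0.23 ± 0.15 and BCL2L11 from −0.17 to 0.02, and MCL1 was at 0.24 ± 0.30. Single libraries moved some of these values: GC-corrected BBC3 was −0.03 without sh-IGF2BP3 2 and 0.50 without sh-NC 1. MCL1 was 0.03 without sh-NC 3 and 0.73 without sh-NC 1. The median over the 10 genes was 0.32 against 0.01 over all genes, with 9 of 10 above 0. With GC content and length taken from the principal transcript, a setting chosen after seeing the data, BAD was at 1.07 ± 0.24. BAX was at 0.22 ± 0.14 and BAK1 at 0.53 ± 0.18, and the groups did not overlap for BAD, BAX, BAK1 and BID. In that setting BCL2L11 was at −0.15 ± 0.18 and BCL2L1 at −0.18 ± 0.15, and 8 of the 10 genes were above 0. The share of all genes without overlap is not given for that setting either. The part of GC content in each difference was not tested.

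**Figure D3:**
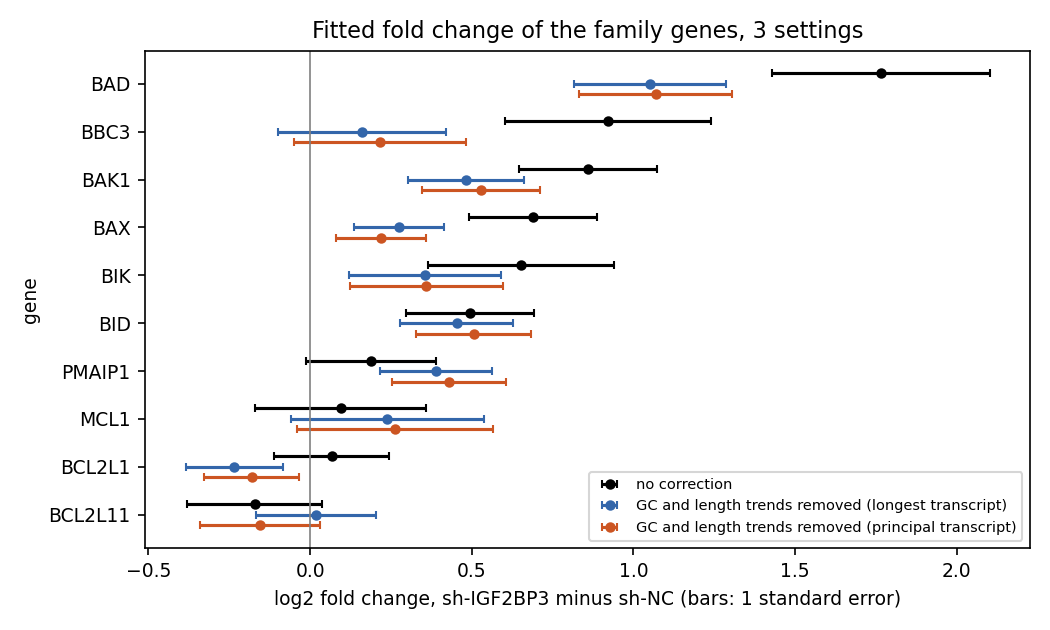
Fitted log2 fold change of each family gene (sh-IGF2BP3 minus sh-NC, horizontal axis) with no correction (black) and with trends in GC content and length removed, by longest transcript (blue) or principal transcript (orange), with bars of 1 standard error. BAD is the largest in all 3 settings, at 1.77, 1.05 and 1.07, while BBC3 is at 0.92, 0.16 and 0.22.

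Over the 6 libraries the log2 CPM of BAD was most like that of RABL6 (Pearson r = 0.998), ZNF579 (r = 0.997) and ARHGAP45 (r = 0.996) of 9797 genes with a mean of at least 10 CPM. These 3 genes have GC contents of 62.3%, 65.8% and 65.9% and log2 fold changes of 0.69, 1.497 and 0.96. Such likeness is widespread, since 1376 of the 9797 genes (14.1%) had an r of at least 0.9 with BAD, and the points share the difference between the groups. Within the family the correlation with BAD was 0.991 for BAX, 0.935 for BAK1, 0.923 for BBC3, 0.916 for BIK and 0.849 for BID. It was 0.413 for PMAIP1, 0.326 for BCL2L1, 0.262 for MCL1 and −0.474 for BCL2L11. After GC correction it was 0.907 for BAX, 0.508 for BBC3, 0.872 for PMAIP1 and −0.907 for BCL2L1. For the others it was then 0.869 for BID, 0.836 for BIK, 0.81 for BAK1, 0.543 for MCL1 and 0.154 for BCL2L11. The share of all genes with an r of at least 0.9 after GC correction is not given here.

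The 7 lists of genes around the family were drawn up with earlier results of these data known, and edgeR called 0 genes in each of them. Counts in the lists stand beside those over all genes, of which 8208 of 16753 had a log2 fold change above 0, 13.6% were higher and 8.54% lower at an unadjusted p under 0.05, and 4.29% were called higher by DESeq2. Of the 16 other family genes 13 were tested, and 5 had a log2 fold change above 0, with 1 at an unadjusted p under 0.05 higher and 2 lower. DESeq2 called 1 higher, BCL2L12, and the median log2 fold change was −0.05. The largest value was that of BCL2L12, a BCL2-like gene, with 29.97, 20.04 and 14.1 CPM in sh-NC and 43.7, 48.9 and 35.2 in sh-IGF2BP3 (log2 fold change 1.00 ± 0.25 SE; edgeR adjusted p = 0.103, DESeq2 adjusted p = 0.0218), which did not overlap. After GC correction its log2 fold change was 0.60. The lowest was that of HRK, a BH3-only gene known from neurons, at 7.40 ± 1.64 CPM in sh-NC and 4.97 ± 0.76 in sh-IGF2BP3 (log2 fold change −0.58 ± 0.29; edgeR adjusted p = 0.253). BCL2, the founding guardian, chosen here after its values were seen, stood at 5.64, 4.54 and 5.06 CPM in sh-NC and 5.26, 4.97 and 4.43 in sh-IGF2BP3, with overlap between the groups. BCL2A1 and BCL2L10, also chosen after their values were seen, had at most 1 count per library.

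Downstream of the membrane, the list of released proteins, apoptosome and caspases had 16 genes, all tested, with 11 above 0, a median log2 fold change of 0.11, 3 at an unadjusted p under 0.05 higher and 1 lower, and 2 called higher by DESeq2. ENDOG, a mitochondrial nuclease, had 59, 33 and 28 counts in sh-NC and 188, 111 and 56 in sh-IGF2BP3, with a log2 fold change of 1.80 ± 0.45 (edgeR adjusted p = 0.103, DESeq2 adjusted p = 0.00958) that was 1.02 after GC correction, and overlap between sh-NC 1 and sh-IGF2BP3 3. FADD, the adaptor that joins death receptors to caspase-8, had 9.54, 6.16 and 4.80 CPM in sh-NC and 13.9, 15.2 and 9.82 in sh-IGF2BP3, without overlap (log2 fold change 0.93 ± 0.29, and 0.53 after GC correction; edgeR adjusted p = 0.122, DESeq2 adjusted p = 0.048). The lowest was the initiator caspase CASP10, with a log2 fold change of −0.68 ± 0.43, and −0.44 after GC correction (edgeR adjusted p = 0.363). Of the 7 inhibitor of apoptosis genes 6 were tested and 1 was above 0, with a median log2 fold change of −0.39 that was −0.03 after GC correction. That 1 gene was BIRC5 (survivin), which also works in mitosis, with 140, 153 and 110 CPM in sh-NC and 202, 230 and 211 in sh-IGF2BP3 (log2 fold change 0.67 ± 0.19; edgeR adjusted p = 0.105), and DESeq2 called it higher (adjusted p = 0.0317). BIRC3, an NF-kB target and ubiquitin ligase, was at 8.66 ± 1.56 CPM in sh-NC and 5.18 ± 1.74 in sh-IGF2BP3 (log2 fold change −0.74 ± 0.31, and −0.36 after GC correction; edgeR adjusted p = 0.177).

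Upstream of BID, 4 of the 8 death receptor genes were above 0, with a median log2 fold change of −0.01. The adaptor TRADD had 6.04, 6.11 and 5.52 CPM in sh-NC and 12.8, 10.9 and 7.84 in sh-IGF2BP3 (log2 fold change 0.83 ± 0.27; edgeR adjusted p = 0.123, DESeq2 adjusted p = 0.0454), without overlap. It was the 1 gene of its list that DESeq2 called, and its log2 fold change was 0.19 after GC correction. The receptor FAS had 19.2, 14.7 and 15.02 CPM in sh-NC and 9.49, 10.5 and 14.3 in sh-IGF2BP3 (log2 fold change −0.51 ± 0.25; edgeR adjusted p = 0.238; −0.30 after GC correction), lower in every knockdown library. The list's median was close to that of all genes.

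The kinases, adaptors and phosphatase subunits that control BAD protein by phosphorylation made up 23 genes, all tested, of which 14 were above 0, with a median log2 fold change of 0.12, 5 at an unadjusted p under 0.05 higher and 1 lower, and 2, PPP2CA and AKT1, called higher by DESeq2. PPP2CA, the catalytic subunit of protein phosphatase 2A, which can dephosphorylate BAD, had 43.5, 25.5 and 20.5 CPM in sh-NC and 63.4, 84.3 and 46.3 in sh-IGF2BP3 (log2 fold change 1.12 ± 0.27; edgeR adjusted p = 0.103, DESeq2 adjusted p = 0.0165). The groups did not overlap, and after GC correction the value was 1.38. AKT1, a kinase of BAD, had 126, 131 and 114 CPM in sh-NC and 236, 201 and 189 in sh-IGF2BP3 (log2 fold change 0.76 ± 0.18, and 0.45 after GC correction; edgeR adjusted p = 0.103, DESeq2 adjusted p = 0.0108). After GC correction 19 of the 23 genes were above 0, with 2 at an unadjusted p under 0.05 higher and 0 lower. Over all genes 8613 were then above 0, with 1136 higher and 612 lower.

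For MCL1, whose protein is removed by ubiquitin ligases, 0 of 7 turnover genes were above 0, with a median log2 fold change of −0.15, 0 genes at an unadjusted p under 0.05 higher and 1 lower. USP9X, which removes ubiquitin from MCL1, had 205, 227 and 231 CPM in sh-NC and 155, 152 and 197 in sh-IGF2BP3 (log2 fold change −0.40 ± 0.19; edgeR adjusted p = 0.223). After GC correction the log2 fold change of USP9X was 0.04, and 6 of the 7 genes were above 0. FBXW7, a substrate receptor of an MCL1 ubiquitin ligase, was the highest of the list at −0.07, and at 0.14 after GC correction. Among the 10 genes of the outer mitochondrial membrane 6 were above 0, with a median of 0.13, 2 at an unadjusted p under 0.05 higher and 0 lower. TOMM40, the import channel, was at 125 ± 59.9 CPM in sh-NC and 216 ± 32.6 in sh-IGF2BP3 (log2 fold change 0.78 ± 0.27, and 0.49 after GC correction; edgeR adjusted p = 0.136). DNM1L, the fission GTPase, was at 140 ± 6.21 and 112 ± 22.1 CPM (log2 fold change −0.31 ± 0.19, and −0.05 after GC correction; edgeR adjusted p = 0.344).

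**Figure D4:**
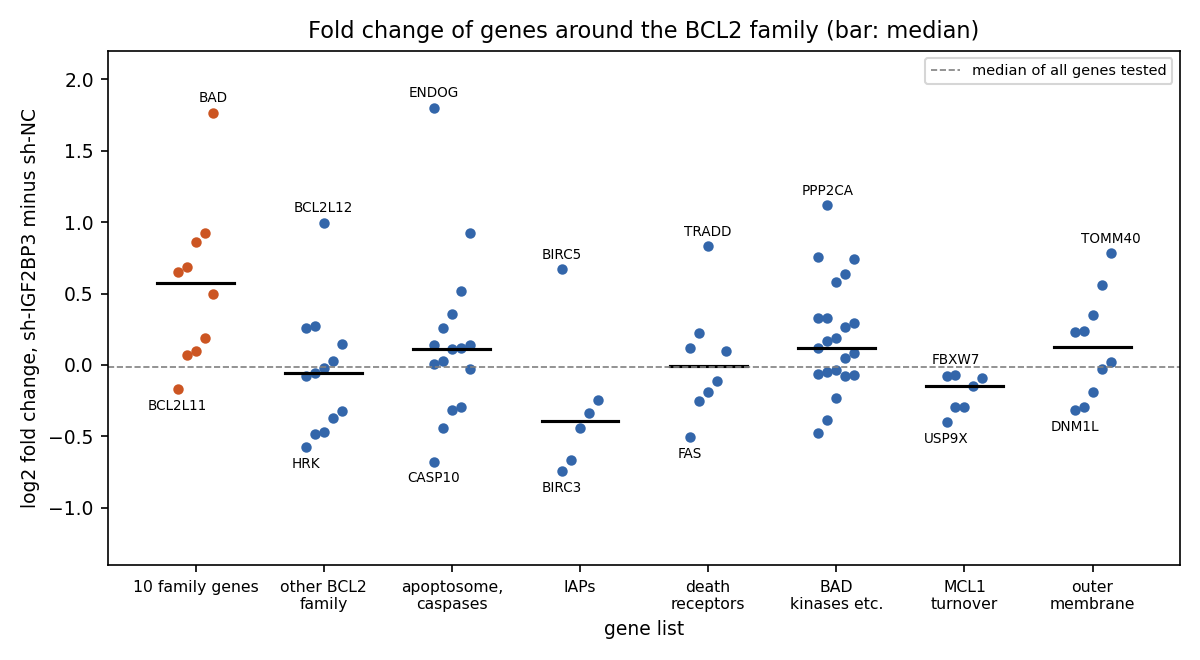
Log2 fold change (sh-IGF2BP3 minus sh-NC, vertical axis) of the tested genes, all but 1, in the 10 family genes (orange) and in the 7 lists around them (blue), with a bar at each list's median, the highest and lowest gene named (for the list of BAD kinases the highest), and a dashed line at the median of all genes tested. The median is 0.57 for the 10 family genes and lies between −0.39 and 0.13 for the other lists, in which ENDOG at 1.80 is the highest gene.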

How the data were processed

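RNA of HCT116 cells was measured in 3 sh-NC and 3 sh-IGF2BP3 libraries made with a TruSeq RNA kit. The authors deposited raw counts per gene and FPKM values for 62710 Ensembl genes. The submitters' processing notes name CASAVA and GRCh38, while the aligner, the counting tool and the use of strand are not given in the sources used here. The FPKM values the authors deposited equal the count divided by the library total and by a gene length that was constant over libraries for 100% of the 20969 genes with counts in every library. Libraries held 16146718 to 23576469 counts, and replicates differed by more than counting noise (chi-square per degree of freedom from 16.6 to 52.3), so that all 6 were counted as separate libraries.

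The count model was edgeR 4.0.16 in R 4.3.3 (filterByExpr, TMM, quasi-likelihood test, Benjamini-Hochberg adjustment over all 16753 genes tested), beside limma 3.58.1 and DESeq2 1.42.0, and the fits were tested on simulated data. Thresholds of a fold change of 1.5 and an adjusted p of 0.05 follow the study's methods. The standard error of a log2 fold change was its size divided by the square root of the F statistic. Log2 CPM used a prior count of 2. GC content and lengths came from GENCODE 29 (known for 96.9% of tested genes), and each library's trend in both was removed as splines with 5 degrees of freedom on its deviation from the mean of all libraries. Promoters came from RefSeq (GRCh38.p14).

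The 10 family genes, the lists, the tests and the alternatives were chosen with earlier results of these data known. Genes named are the 10 members, IGF2BP3, the highest and lowest log2 fold change of each list (for control of BAD only the highest) and any gene called by edgeR or DESeq2, and the 3 genes with a mean of at least 10 CPM most correlated with BAD. BCL2, BCL2A1 and BCL2L10 are also named, chosen after their values were seen, as are the cell type markers and genes that overlap or copy a member. 1 gene of the lists is not reported here, although the counts and medians include it. The 7 lists were other BCL2 family genes, apoptosome and caspases, inhibitors of apoptosis, death receptors, control of BAD by phosphorylation, turnover of MCL1 and the outer mitochondrial membrane. Epithelial, leukocyte and stromal markers checked the cell line label. Results were also computed with DESeq2, with RLE or upper-quartile factors, other filters on low counts, a replicate block, removal of the GC and length trends, GC correction without each library, each library left out, limma on log2(FPKM + 1) or log2(FPKM + 0.1), and any fold change.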

Additional observations from a re-analysis of the deposited data

How the results depend on the processing

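Depth limits the genes with few counts, such as BAD, with 68 to 324 per library, and ENDOG, with 28 to 188, and the spread between 3 libraries exceeds counting noise. Genes called by edgeR, 0 higher and 0 lower, were 562 and 137 with DESeq2, 687 and 150 with no filter on low counts, 1 higher with RLE normalization and 1 higher with at least 10 counts in every library. They were 0 higher and 1 lower with limma on log2(FPKM + 1) and with limma on log2(FPKM + 0.1), and 0 with any fold change. Without sh-NC replicate 1 they were 1739 and 985, and without sh-IGF2BP3 replicate 3 they were 214 and 14, so that leaving out single libraries gave 0 to 1739 higher and 0 to 985 lower. After correction for GC content and length (GC correction), these were 0 to 682 higher and 0 to 161 lower. Genes at an unadjusted p under 0.05, 2283 higher and 1431 lower, numbered 1889 and 1904 with upper-quartile normalization, 1136 and 612 after GC correction and 1092 and 647 after GC correction by the principal transcript, a setting chosen after seeing the data. There were 1397 higher with limma on log2(FPKM + 0.1) and 2461 lower with limma on log2(FPKM + 1) and no filter. Leaving out single libraries gave 1212 to 3072 higher and 656 to 2463 lower. After GC correction, leaving out sh-NC 1, 2 and 3 gave 2725, 612 and 586 higher and leaving out sh-IGF2BP3 1, 2 and 3 gave 945, 390 and 1234 higher, with 1484, 389 and 266 and 794, 246 and 638 lower in the same order. The cause of these shifts was not tested.

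The study describes pairs of control and knockdown cells, and neither it nor the labels tie the replicate numbers to a culture or day. Deviations of the 2 libraries with the same number correlated at −0.284, −0.186 and −0.043. With the replicate block edgeR called 0 genes in either direction, with 2105 at an unadjusted p under 0.05 higher and 1160 lower, and with the block after GC correction these were 848 and 326. With the block IGF2BP3 had an edgeR adjusted p of 0.154, and 9 of the 10 family genes were above 0.

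The median log2 fold change of the 10 genes, 0.57, was 0.32 after GC correction and 0.31 after GC correction by the principal transcript. Without single libraries it ranged from 0.42 to 0.72, and after GC correction from 0.21 to 0.57, with 0.32 without sh-NC 2, 0.21 without sh-NC 3 and 0.24 without sh-IGF2BP3 2. BAD, BAX, BAK1, BID, PMAIP1 and BIK were above 0 in 25 of 25 settings, BBC3 in 23, MCL1 in 22, BCL2L1 in 12 and BCL2L11 in 5. BAD ranged from 0.93 to 2.05. IGF2BP3 stayed below 0 and above the adjusted threshold in every setting, with log2 fold changes from −0.66 to −0.09 and adjusted p from 0.0829 (DESeq2) to 0.996. The neighbouring levels gave 0 pairs at an adjusted p under 0.05 with log2(FPKM + 1) and with the longest transcript's length. Leaving out a library says nothing here, since 5 libraries cannot give a p below 0.0625.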
